A study of Homo sapiens with 16 samples.

Results

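The 7SK ribonucleoprotein and the kinase that it holds were examined as 8 genes of the 43388 in the deposited expression table: the small nuclear RNA RN7SK, its inhibitor proteins HEXIM1 and HEXIM2, its stabilising proteins LARP7 and MEPCE, and the kinase CDK9 with its cyclins CCNT1 and CCNT2. The genes were taken by name, with no threshold on their values, and all 8 passed the minimum of a mean of 1 TPM. TPM are reads per length of gene, scaled so that every library sums to 1000000. The libraries were made from total RNA of cardiomyocytes derived from the human induced pluripotent stem cell line WTC11, wild type, by the GiWi protocol of timed Wnt activation and inhibition. A Day 16 group in RPMI/B27 served as the baseline, and the other 3 groups were kept from Day 16 for 2 weeks to Day 30. Their media were RPMI/B27, RPMI_glcM/B27 (RPMI with 5 mM glucose) and HPLM/B27, a medium made to the composition of human plasma, which holds the same glucose. Each group held 4 libraries, and the question was how culture time and medium changed the transcriptome.

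CDK9 and a T-type cyclin form P-TEFb, the kinase that phosphorylates paused RNA polymerase II and its pausing factors and so lets transcription into the gene body proceed. RN7SK holds part of the cell's P-TEFb in an inactive complex: MEPCE caps the 5′ end of the RNA, LARP7 binds its 3′ end and HEXIM proteins bound to the RNA inhibit the kinase. In cardiomyocytes the release of P-TEFb from this complex is known from studies of hypertrophic growth, and HEXIM1 is known as a brake on it.

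RN7SK is a transcript of 332 bases encoded at chr6:52995620-52995951 on the plus strand of GRCh38 (hg38), the build named for the alignment. It is annotated as an snRNA gene. Its first 300 bases, chr6:52995620-52995919, are shown because this molecule was the only member called in TPM, and the capitals mark the letters GATC, which read the same on both strands. The GATC letters start at positions 13, 42 and 64 of the RNA, within the 5′ part where HEXIM1 is known to bind paired GAUC repeats. The 60 bases before the gene, chr6:52995560-52995619, are shown with the letters TATATA in capitals, which start at position -30 from the first base of the RNA, since RN7SK is transcribed by RNA polymerase III from elements outside the transcribed part. Both are written as DNA, 5′ to 3′, and were read from the hg38 genome at the coordinates of RefSeq.
RN7SK: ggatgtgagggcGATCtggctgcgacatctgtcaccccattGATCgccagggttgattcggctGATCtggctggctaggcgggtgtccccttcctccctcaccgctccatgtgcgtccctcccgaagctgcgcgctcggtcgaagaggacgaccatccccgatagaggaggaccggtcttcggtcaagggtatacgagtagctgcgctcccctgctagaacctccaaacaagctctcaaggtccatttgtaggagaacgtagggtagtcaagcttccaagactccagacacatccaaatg
RN7SK upstream: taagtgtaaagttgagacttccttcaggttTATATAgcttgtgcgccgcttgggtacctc
The same 6 letters were found in the last 60 bases before the start in 446 of 35116 RefSeq promoters (1.27%). HEXIM1 (chr17:45148475-45152099) had them at position -31, and MEPCE (chr7:100428790-100434118) at position -30 of 1 of its listed starts. No TATATA was found there for HEXIM2 (chr17:45160174-45170040), LARP7 (chr4:112637143-112657586), CDK9 (chr9:127786034-127790792), CCNT1 (chr12:48688458-48716707) or CCNT2 (chr2:134918822-134959342).

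The libraries held 7744768 to 16183655 reads on genes, as recovered from the TPM steps. All 8 cardiomyocyte markers examined (TNNT2, ACTN2, MYH6, MYH7, NKX2-5, TNNI1, MYL7 and RYR2) were expressed, with a summed level of 11173 to 15213 TPM per library. Markers of other cell types had the summed levels that follow, and their part in the results below was not tested. The 15 liver-type endoderm genes, 11 of them with a mean of at least 1 TPM, summed to 481 to 853 TPM on Day 16, 331 to 582 TPM in Day 30 RPMI/B27, 95.4 to 219 TPM in RPMI_glcM/B27 and 73.2 to 214 TPM in HPLM/B27, and the 12 fibroblast genes, 8 of them at that level, to 248 to 451, 154 to 305, 121 to 166 and 125 to 189 TPM in the same order. In that order too, 6 genes of dividing cells summed to 275 to 371, 137 to 197, 126 to 158 and 84.3 to 215 TPM, 7 smooth muscle genes, 6 of them at that level, to 503 to 991, 294 to 1081, 326 to 434 and 355 to 569 TPM, and 10 endothelial genes, only 1 of them at that level (KDR), to 43.2 to 55.5, 14.6 to 33.5, 16.8 to 26.2 and 19.8 to 31.9 TPM, with 1 smooth muscle gene and none of the others at 0 in every library. The mitochondrial ribosomal RNA RNR2 made up 41.0 to 48.3% of the TPM, and 46.2 to 48.3% in HPLM/B27. Replicates 3 and 4 of Day 30 RPMI/B27 stood apart: RNR1, the other mitochondrial ribosomal RNA, was listed there at 14387 and 29276 TPM against 49.5 to 6806 TPM elsewhere, and their median-of-ratios factors (each library's median ratio to the gene means) were 0.786 and 0.727 against 0.881 to 1.34. Neither RNR1 nor RNR2 passed the limma threshold in any comparison, the nearest being RNR1 in Day 30 RPMI/B27 against Day 16 (adjusted p = 0.0778). The median gene therefore read lower in TPM in these 2 libraries, and the results are given with and without them where they differ. The labels call the 4 libraries of a group biological replicates, while each came from 1 well and the design text gives 3 wells per medium. The p-values therefore measure the spread between wells, and in bulk RNA fewer cells of a type and less RNA per cell cannot be told apart.

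RN7SK was higher at Day 30 than at Day 16 in every medium. It was listed at 95151, 87563, 98843 and 103682 TPM in the Day 16 libraries and at 125779, 130709, 138467 and 128053 TPM in Day 30 RPMI/B27. The RPMI_glcM/B27 libraries held 134341, 131245, 129609 and 136063 TPM, and the HPLM/B27 libraries 123152, 113064, 108062 and 106894 TPM. All 12 Day 30 libraries lay above all 4 Day 16 libraries, and all 4 HPLM/B27 libraries lay below the 8 libraries of the other Day 30 media. RN7SK was the second most abundant gene of the table by mean TPM, and it rested on 116466 to 330486 reads per library. Its share of a library's TPM was 9.63% ± 0.680 (SD, n = 4) on Day 16. At Day 30 it was 11.3% ± 0.741 in HPLM/B27, 13.1% ± 0.552 in RPMI/B27 and 13.3% ± 0.292 in RPMI_glcM/B27.

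**Figure D1:**
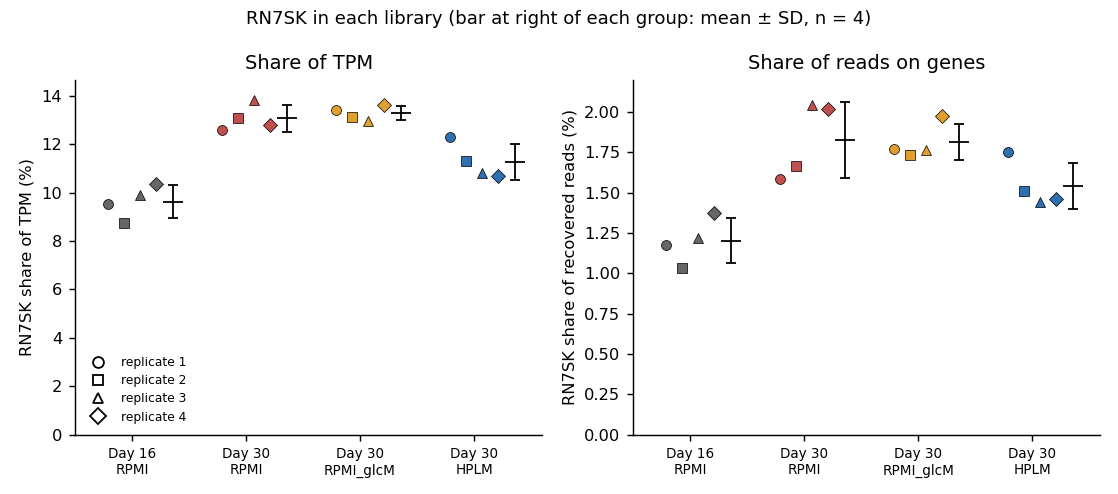
RN7SK in each of the 16 libraries by group, as a percentage of the library's TPM and as a percentage of its recovered reads, with points for libraries and a bar with whiskers for the mean and SD. The Day 30 libraries sit above the Day 16 libraries on both axes (8.76 to 10.4% of TPM on Day 16), and the HPLM/B27 libraries sit lowest among the Day 30 groups on the TPM axis.

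By limma on log2(TPM + 1), RN7SK rose from Day 16 to Day 30 in RPMI/B27 by 0.44 on the log2 scale (SE 0.087, adjusted p = 0.00281), a ratio of means of 1.36. In RPMI_glcM/B27 it rose by 0.47 (adjusted p = 0.00123, limma), a ratio of 1.38. In HPLM/B27 the difference from Day 16 was 0.23 (95% interval 0.045 to 0.41, limma adjusted p = 0.0622), a ratio of 1.17, which did not pass the threshold. RN7SK was the only member past the threshold in the 2 RPMI media, where 19.9% and 21.1% of all 16122 genes tested passed it, 2.08% and 3.34% of them upward. No member passed it in HPLM/B27 against Day 16, where 25.4% of all genes did, 3.00% upward. There RN7SK alone had an unadjusted limma p under 0.05, and limma-voom on the recovered reads called 2 members, RN7SK and MEPCE, and 29.5% of the genes tested. The 3 comparisons share the Day 16 libraries. The median gene moved by -0.28, -0.22 and -0.29 on this scale in these 3 media, in the order given, and RN7SK's difference was larger than that of 94.7%, 93.7% and 89.8% of all genes.

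Between the Day 30 media, RN7SK did not pass the limma threshold. It differed by 0.023 between RPMI_glcM/B27 and RPMI/B27 (adjusted p = 0.937), where 2.20% of all genes passed, by -0.21 between HPLM/B27 and RPMI/B27 (adjusted p = 0.236), where 2.41% passed, and by -0.24 between HPLM/B27 and RPMI_glcM/B27 (adjusted p = 0.547), where 0.0682% passed. No other member passed in these 3 comparisons either. At an unadjusted limma p under 0.05 there was 1 member in each, MEPCE in the first and RN7SK in the other 2, and limma-voom on the recovered reads called 1, 1 and 0 members, against 12.9%, 16.1% and 1.74% of all genes. The groups of RN7SK values did not overlap in 5 of the 6 comparisons, the exception being RPMI_glcM/B27 against RPMI/B27, and none of the 7 protein-coding members had groups without overlap in any comparison. Of all genes tested, 17.9%, 30.2% and 35.9% had no overlap against Day 16 in the same order of media, 1.72%, 4.24% and 3.77% of all genes upward. Between the Day 30 media 7.00% had none for RPMI_glcM/B27 against RPMI/B27, 7.30% for HPLM/B27 against RPMI/B27 and 7.28% for HPLM/B27 against RPMI_glcM/B27, with 3.17% and 4.86% downward in the last 2, the direction of RN7SK.

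The share of TPM was also compared by a two-sided exact permutation test of 4 libraries against 4, for which 0.0286 is the smallest p possible, adjusted over 6 comparisons. Day 30 exceeded Day 16 by 1.65 percentage points in HPLM/B27, 3.44 in RPMI/B27 and 3.65 in RPMI_glcM/B27, each with an adjusted exact p of 0.0343. HPLM/B27 differed from RPMI/B27 by -1.80 points and from RPMI_glcM/B27 by -2.002 points, each again with an adjusted exact p of 0.0343, and 0.206 points separated the RPMI media (adjusted exact p = 0.543). The order of the groups was thus Day 16, HPLM/B27, then RPMI/B27 and RPMI_glcM/B27, and these last neighbours did not differ beyond their spread.

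Whether the differences passed after adjustment depended on how RN7SK was counted, while the HPLM/B27 mean was the lowest of Day 30 both as a share of TPM and as a share of reads. As a share of recovered reads, in which a long transcript counts for more than in TPM, RN7SK took 1.20% ± 0.140 on Day 16 (SD, n = 4). At Day 30 it took 1.54% ± 0.144 in HPLM/B27, 1.81% ± 0.112 in RPMI_glcM/B27 and 1.83% ± 0.236 in RPMI/B27. The differences from Day 16 were 0.341 points in HPLM/B27, 0.611 in RPMI_glcM/B27 and 0.627 in RPMI/B27. Each had an unadjusted exact permutation p of 0.0286, the smallest possible and the same as by share of TPM. The adjusted exact p was 0.0571 for each, since fewer of the 6 comparisons reached that smallest p. HPLM/B27 differed from RPMI/B27 by -0.286 points (adjusted exact p = 0.137) and from RPMI_glcM/B27 by -0.270 points (adjusted exact p = 0.0857). The share of reads was computed after the data were seen.

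Median-of-ratios scaling, which sets the median gene level between libraries, enlarged the gap between Day 16 and Day 30 and widened the spread. Rescaled RN7SK stood at 79529, 65324, 82636 and 98020 on Day 16, at 108403, 110054, 176089 and 176148 in Day 30 RPMI/B27, at 126952, 126328, 132226 and 154500 in RPMI_glcM/B27 and at 138481, 112080, 113997 and 118776 in HPLM/B27. All Day 30 libraries were again above all Day 16 libraries, with ratios of means of 1.75, 1.66 and 1.48, while HPLM/B27 now overlapped both other Day 30 media. On this scale 19.3%, 30.2% and 27.8% of all genes did not overlap between Day 16 and the 3 Day 30 groups, and 17.2%, 16.7% and 10.2% did not between the Day 30 media. The limma differences were 0.78, 0.74 and 0.58 with an SE of 0.317, and none passed (adjusted p = 0.106, 0.0979 and 0.206), where 17.5%, 27.6% and 25.3% of all genes did. By limma-voom on the recovered reads, where 21.7%, 29.6% and 29.5% of genes passed, all 3 did (adjusted p = 0.000517, 0.000699 and 0.00499). Without replicates 3 and 4 of Day 30 RPMI/B27, left out after the data were seen, RN7SK's difference from Day 16 in RPMI/B27 was 0.42 in TPM (limma adjusted p = 0.0291). Rescaled and without these libraries, HPLM/B27 lay 0.14 above RPMI/B27 (limma adjusted p = 0.751), the opposite sign to TPM.

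The table lists 1 RN7SK gene and no gene whose name starts with RN7SKP, while GENCODE 44 names 293 such copies. Reads from copies and from RN7SK may have been shared by the alignment, so the level of RN7SK carries that uncertainty.

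**Figure D2:**
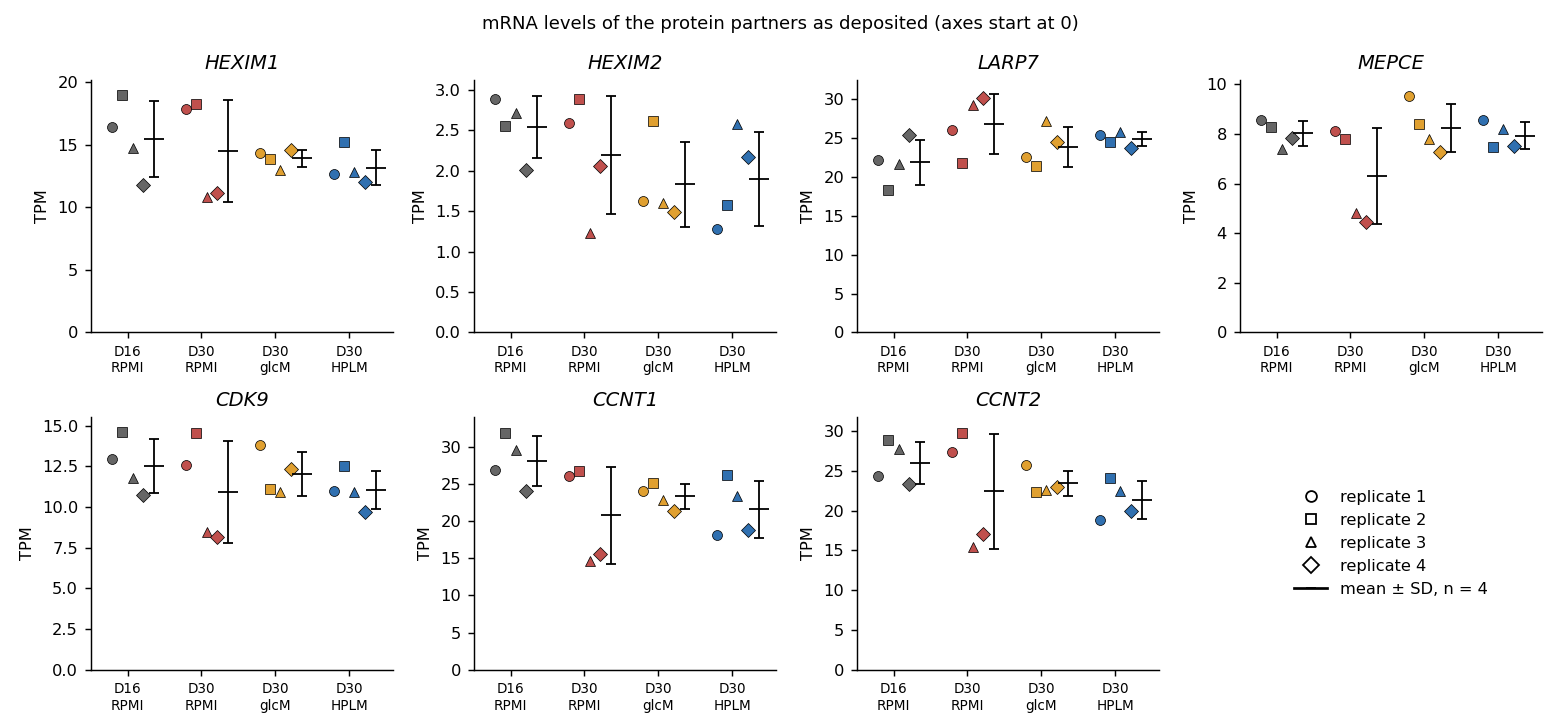
TPM of the 7 protein-coding members in each library by group, 1 panel per gene with its own axis from 0, points for libraries and a bar with whiskers for the mean and SD. In Day 30 RPMI/B27, replicates 3 and 4 lie below replicates 1 and 2 in every panel except LARP7, and the groups overlap in every panel.

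The protein-coding members were expressed at messenger RNA levels far below that of the RNA they bind. Over all 16 libraries LARP7 averaged 24.4 TPM, CCNT1 23.4, CCNT2 23.3, HEXIM1 14.3, CDK9 11.6, MEPCE 7.63 and HEXIM2 2.12 TPM, which are levels per length. The 7 together summed to 84.5 to 123.4 TPM per library. The ratio of RN7SK to that sum was 709 to 986 on Day 16, 1042 to 1638 in Day 30 RPMI/B27, 1203 to 1302 in RPMI_glcM/B27 and 1014 to 1284 in HPLM/B27, so no Day 16 library overlapped a Day 30 library.

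HEXIM1 encodes the main inhibitor of P-TEFb, which acts on the kinase when it is bound to RN7SK. It was listed at 16.4, 19.0, 14.7 and 11.7 TPM on Day 16 and at 17.8, 18.3, 10.8 and 11.2 TPM in Day 30 RPMI/B27. In RPMI_glcM/B27 it was at 14.3, 13.8, 13.0 and 14.6 TPM and in HPLM/B27 at 12.7, 15.2, 12.8 and 12.0 TPM. The group means were 15.5 ± 3.03, 14.5 ± 4.08, 13.9 ± 0.681 and 13.2 ± 1.42 TPM (SD, n = 4), the groups overlapped, and limma differences from Day 16 were -0.10, -0.12 and -0.20 with an SE of 0.17 (adjusted p = 0.682, 0.653 and 0.400). After median-of-ratios scaling they were 0.21, 0.13 and 0.13 (limma adjusted p = 0.105, 0.278 and 0.319), so the sign turned with the scaling.

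HEXIM2, the paralogue that can take the same place in the complex, was near the detection limit, with 15 to 46 reads per library. It was at 2.89, 2.55, 2.71 and 2.00 TPM on Day 16, 2.59, 2.89, 1.23 and 2.06 TPM in Day 30 RPMI/B27, 1.62, 2.62, 1.604 and 1.49 TPM in RPMI_glcM/B27 and 1.28, 1.58, 2.57 and 2.17 TPM in HPLM/B27. The groups overlapped, and at this depth no difference was detectable, with limma differences from Day 16 of -0.17, -0.33 and -0.30 (SE 0.21, adjusted p = 0.561, 0.278 and 0.289).

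LARP7, the La-related protein that stays bound to the 3′ end of RN7SK and keeps it stable, differed from the other proteins in where its levels were high. It was at 22.2, 18.4, 21.7 and 25.5 TPM on Day 16 and at 26.1, 21.8, 29.3 and 30.2 TPM in Day 30 RPMI/B27. RPMI_glcM/B27 held 22.5, 21.4, 27.2 and 24.5 TPM and HPLM/B27 25.4, 24.5, 25.8 and 23.7 TPM. The groups overlapped, the limma differences from Day 16 were 0.28, 0.12 and 0.18 (SE 0.13), and none passed (adjusted p = 0.123, 0.530 and 0.294). They were nevertheless larger than those of 91.6%, 82.3% and 88.3% of all genes. With median-of-ratios scaling they were 0.61, 0.38 and 0.52 (limma adjusted p = 0.0739, 0.221 and 0.103), and by limma-voom the first, 0.62, passed (adjusted p = 0.0420). In that limma-voom comparison 21.7% of the genes tested passed. The rescaled levels of 24.3 to 28.6 in HPLM/B27 lay above all 4 Day 16 levels of 13.7 to 24.1. Between these groups 27.8% of all genes had no overlap on that scale.

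MEPCE, the methyltransferase that caps RN7SK at its 5′ end, was at 8.56, 8.27, 7.41 and 7.86 TPM on Day 16 and at 8.10, 7.82, 4.82 and 4.44 TPM in Day 30 RPMI/B27. It was at 9.54, 8.39, 7.81 and 7.29 TPM in RPMI_glcM/B27 and at 8.55, 7.47, 8.21 and 7.51 TPM in HPLM/B27. Replicates 3 and 4 of RPMI/B27 lay below every other library, and replicate 1 of RPMI_glcM/B27 lay above all others. In TPM no comparison passed, the largest difference being 0.38 for RPMI_glcM/B27 over RPMI/B27 (SE 0.16, limma adjusted p = 0.272). With median-of-ratios scaling MEPCE was the only member past the limma threshold, in 4 comparisons: RPMI_glcM/B27 exceeded Day 16 by 0.27 (adjusted p = 0.0250), HPLM/B27 exceeded Day 16 by 0.30 (adjusted p = 0.0175), and they exceeded RPMI/B27 by 0.33 (adjusted p = 0.0214) and 0.35 (adjusted p = 0.0135). On that scale 27.6%, 25.3%, 12.1% and 13.0% of all genes passed in these comparisons, and 1.59% between HPLM/B27 and RPMI_glcM/B27, so the calls are read against a larger background than in TPM.

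Rescaled MEPCE was at 7.15, 6.17, 6.20 and 7.43 on Day 16, 6.98, 6.58, 6.13 and 6.11 in Day 30 RPMI/B27, 9.01, 8.08, 7.97 and 8.28 in RPMI_glcM/B27 and 9.61, 7.40, 8.66 and 8.35 in HPLM/B27. The lowest RPMI_glcM/B27 library lay above every library of both RPMI/B27 groups, and only 1 HPLM/B27 library lay within the Day 16 range. On this scale 30.2% of all genes had no overlap between RPMI_glcM/B27 and Day 16, and 17.2% had none between RPMI_glcM/B27 and Day 30 RPMI/B27. HPLM/B27 and RPMI_glcM/B27 differed by 0.023 (SE 0.084, limma adjusted p = 0.946). By limma-voom 3 of the 4 passed, the exception being RPMI_glcM/B27 against Day 16 (adjusted p = 0.0612), and without replicates 3 and 4 of RPMI/B27 the rescaled excess over RPMI/B27 was 0.26 and 0.28 and did not pass (limma adjusted p = 0.134 and 0.0940). Of the genes tested by limma-voom, 29.5% passed in HPLM/B27 against Day 16. Against RPMI/B27, 12.9% passed in RPMI_glcM/B27 and 16.1% in HPLM/B27.

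CDK9, the kinase itself, was at 12.9, 14.6, 11.8 and 10.7 TPM on Day 16 and 12.6, 14.5, 8.44 and 8.17 TPM in Day 30 RPMI/B27. It was at 13.8, 11.1, 10.9 and 12.3 TPM in RPMI_glcM/B27 and 10.99, 12.5, 10.9 and 9.68 TPM in HPLM/B27. The group means of 12.5 ± 1.65, 10.9 ± 3.14, 12.0 ± 1.33 and 11.03 ± 1.17 TPM (SD, n = 4) differed by less than the spread, with limma differences from Day 16 of -0.21, -0.050 and -0.17 (SE 0.17, adjusted p = 0.367, 0.859 and 0.474).

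CCNT1 encodes cyclin T1, the cyclin most used by CDK9. It was at 26.9, 31.8, 29.5 and 24.01 TPM on Day 16, 26.1, 26.8, 14.6 and 15.6 TPM in Day 30 RPMI/B27, 24.04, 25.2, 22.8 and 21.3 TPM in RPMI_glcM/B27 and 18.1, 26.1, 23.4 and 18.8 TPM in HPLM/B27. The Day 16 libraries were the highest as a group but overlapped each Day 30 group. Its limma differences from Day 16 were -0.46, -0.25 and -0.37 (SE 0.18, adjusted p = 0.0848, 0.362 and 0.147), and after median-of-ratios scaling -0.13, 0.013 and -0.032, so most of the difference went with the scaling. CCNT2, the second T-type cyclin, was at 24.3, 28.8, 27.7 and 23.3 TPM on Day 16, 27.3, 29.8, 15.4 and 17.1 TPM in Day 30 RPMI/B27, 25.8, 22.4, 22.5 and 23.0 TPM in RPMI_glcM/B27 and 18.8, 24.1, 22.5 and 20.01 TPM in HPLM/B27. None of its differences passed, those from Day 16 being -0.26, -0.14 and -0.28 (SE 0.17, limma adjusted p = 0.299, 0.603 and 0.253).

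**Figure D3:**
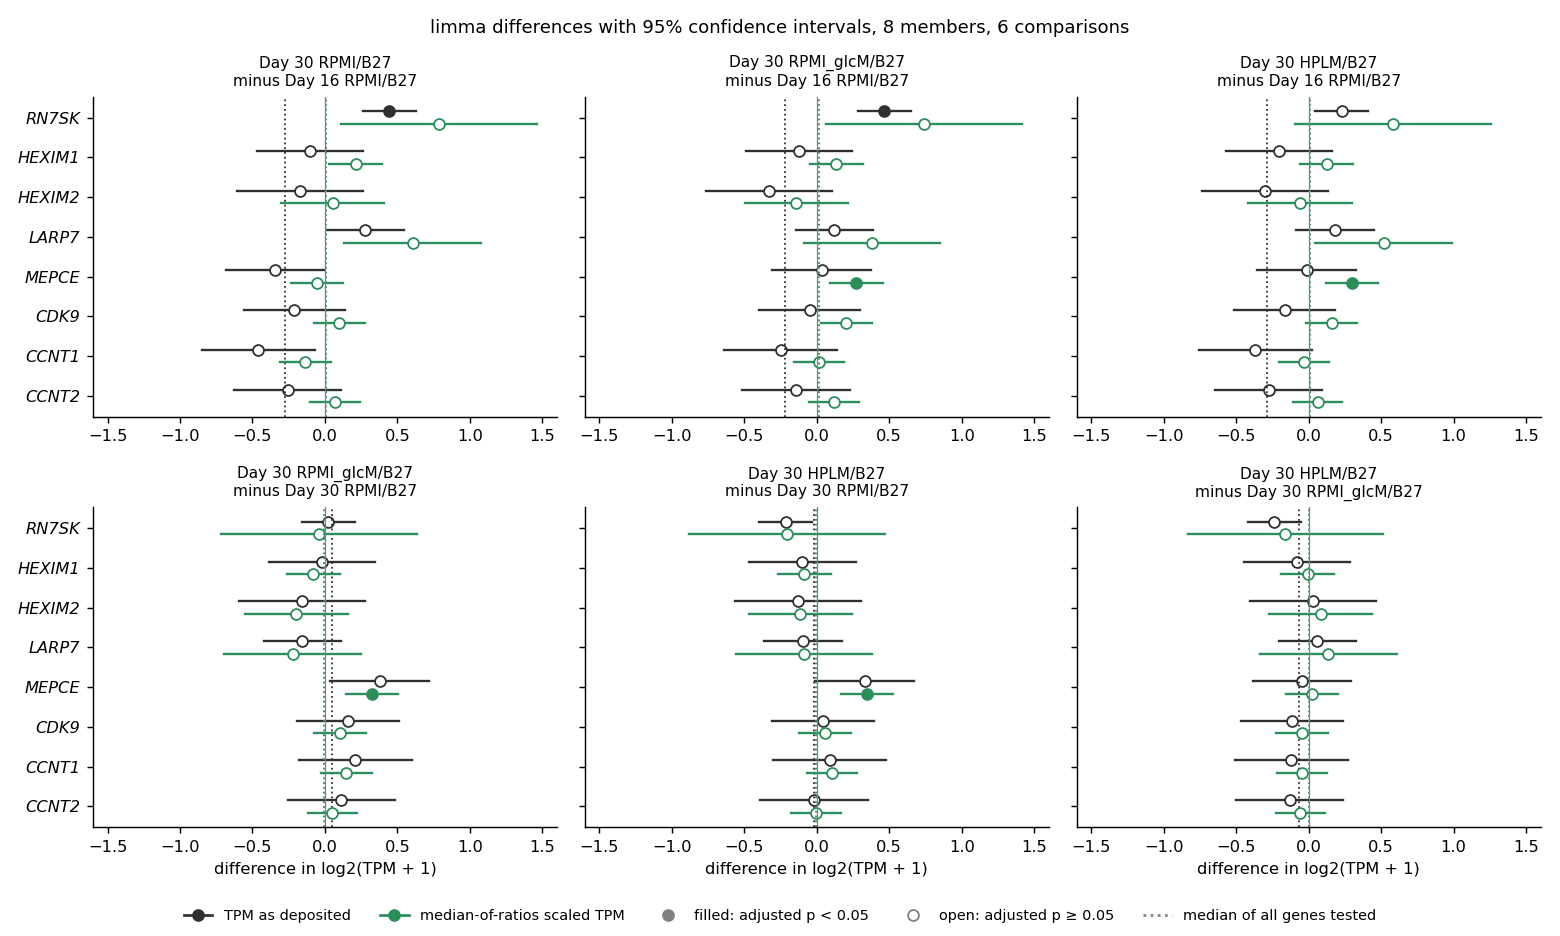
The limma log2 difference of each member in the 6 comparisons, in TPM and after median-of-ratios scaling, with 95% intervals as lines, filled points for adjusted p under 0.05 and dotted lines for the median of all genes tested. RN7SK lies to the right of 0 against Day 16 in all 3 media, and MEPCE is filled after scaling in 4 panels.

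In TPM all 7 protein-coding members had their largest coefficient of variation (SD over mean) in Day 30 RPMI/B27, at 14.3 to 33.2%, while RN7SK, at 4.22% there, did not. After median-of-ratios scaling 3 of the 8 members did, RN7SK, LARP7 and CCNT2. HEXIM1, HEXIM2, MEPCE, CDK9, CCNT1 and CCNT2 had mean TPM in replicates 3 and 4 of 0.609, 0.599, 0.582, 0.613, 0.571 and 0.568 times those of replicates 1 and 2. LARP7 had 1.24 times and RN7SK 1.039 times. HEXIM1, MEPCE, CDK9, CCNT1 and CCNT2 had their lowest 2 of 16 values there, while LARP7 had its highest 2. After median-of-ratios scaling the first 6 ratios were 0.885 to 0.952, and those of LARP7 and RN7SK were 1.93 and 1.61. LARP7 and RN7SK thus stood apart from the other members in these libraries on either scale, together with the high RNR1 given above, whose part in the result was not tested.

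**Figure D4:**
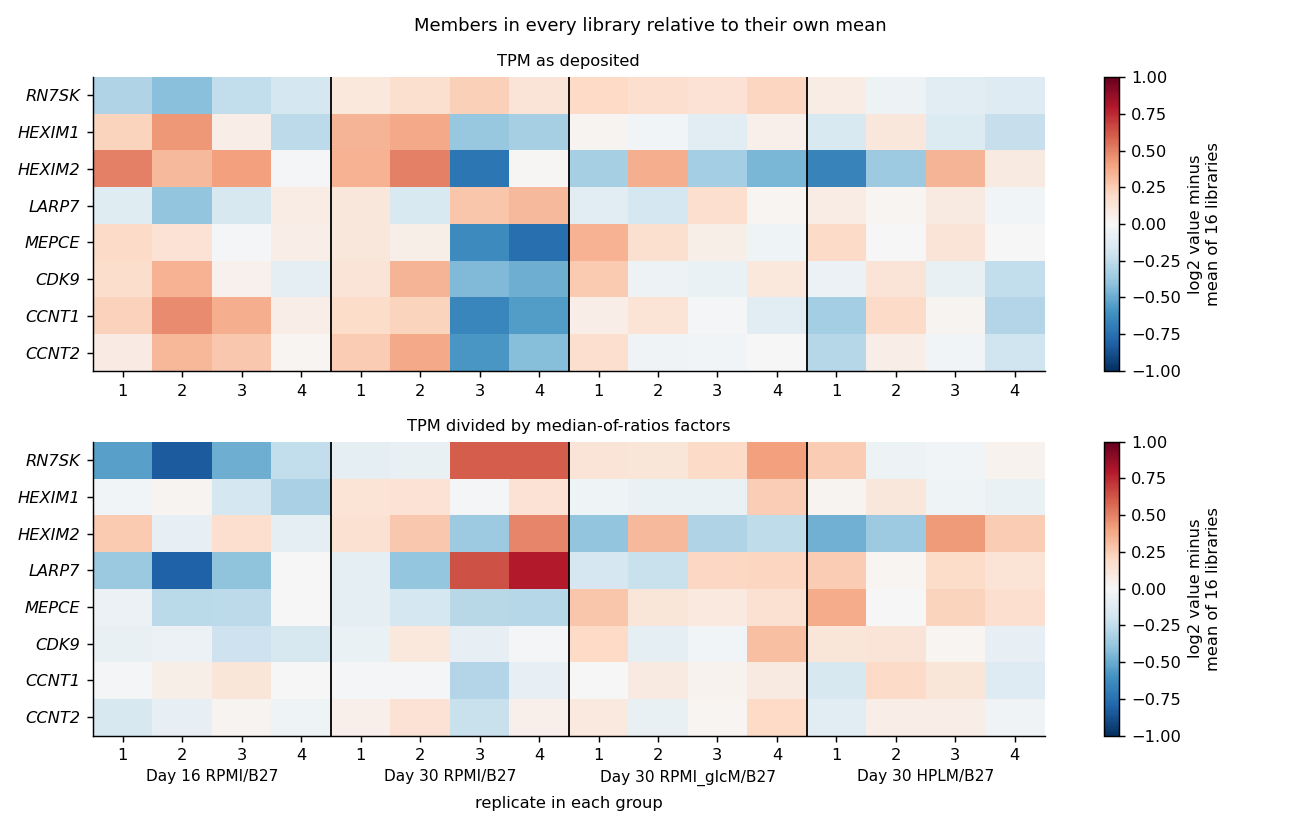
Each member's log2 value less its mean over the 16 libraries, in TPM and after median-of-ratios scaling, with members as rows, libraries as columns by group and colour for the difference. In TPM, replicates 3 and 4 of Day 30 RPMI/B27 are low for HEXIM1, MEPCE, CDK9, CCNT1 and CCNT2 and high for LARP7, and RN7SK is low in all 4 Day 16 columns.

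Ratios of members within a library do not depend on how that library was scaled. The ratio of RN7SK to LARP7, the RNA to its stabilising partner, lay between 4072 and 6141, a range of 1.51 times. On their own RN7SK and LARP7 ranged 1.58 and 1.64 times in TPM, and 2.70 and 3.03 times rescaled. On the log2 scale it was 12.07, 12.22, 12.16 and 11.99 on Day 16, 12.23, 12.55, 12.21 and 12.05 in Day 30 RPMI/B27, 12.54, 12.58, 12.22 and 12.44 in RPMI_glcM/B27 and 12.24, 12.17, 12.03 and 12.14 in HPLM/B27. RPMI_glcM/B27 exceeded Day 16 by 0.34 without overlap, though its lowest library and the highest of Day 16 both read 12.22, and this did not pass after adjustment over the 24 ratio tests (exact permutation p = 0.0286, adjusted p = 0.171).

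The cyclins kept close to an even ratio, CCNT1 being 0.898 to 1.12 times CCNT2. Its log2 value was 0.14, 0.14, 0.091 and 0.042 on Day 16 and -0.066, -0.16, -0.076 and -0.13 in Day 30 RPMI/B27, a difference of -0.21 (SE 0.032) with no overlap and the same p (exact permutation p = 0.0286, adjusted p = 0.171). HEXIM1, the inhibitor, was 1.037 to 1.42 times CDK9, its target. Its log2 ratio to CDK9 was 0.50, 0.33, 0.36 and 0.45 in Day 30 RPMI/B27, above 0.053, 0.32, 0.25 and 0.24 in RPMI_glcM/B27 and 0.20, 0.28, 0.23 and 0.31 in HPLM/B27. The differences of -0.20 and -0.16 were without overlap, each with an exact permutation p of 0.0286 (adjusted p = 0.171), and Day 16 at 0.34, 0.38, 0.32 and 0.13 overlapped all 3 Day 30 groups. HEXIM1 exceeded HEXIM2 by 4.98 to 9.87 times. None of the 24 ratio tests passed after adjustment. The smallest exact p that 4 libraries against 4 allow is 0.0286. After adjustment over 24 tests it can pass only if many of them reach it. A few ratios without overlap therefore could not pass, and the adjusted p does not tell them from no difference.

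**Figure D5:**
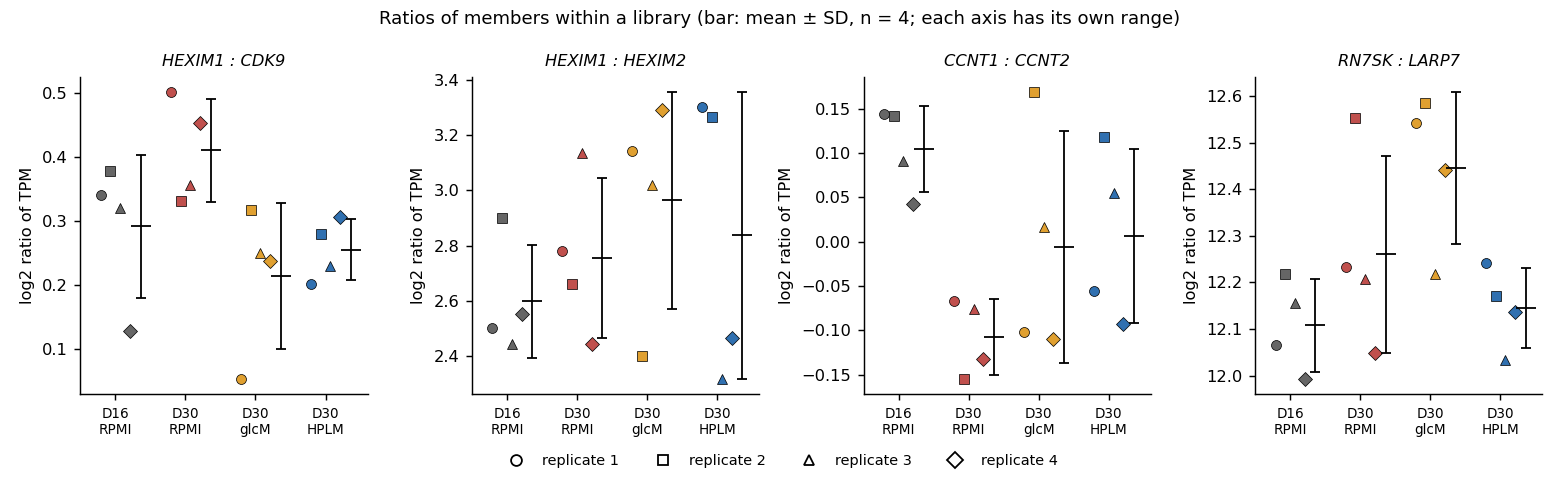
The log2 ratio of RN7SK to LARP7, HEXIM1 to CDK9, HEXIM1 to HEXIM2 and CCNT1 to CCNT2 in each library by group, with points for libraries, a bar with whiskers for the mean and SD, and a separate axis range in each panel. CCNT1 to CCNT2 is below 0 in all 4 Day 30 RPMI/B27 libraries and above 0 in all 4 Day 16 libraries, and HEXIM1 to CDK9 is above 0 in all 16.

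Genes around the complex were examined in lists, with counts by limma in TPM. Against Day 16, where 17.8%, 17.8% and 22.4% of all genes passed downward in the 3 media, here always in the order RPMI/B27, RPMI_glcM/B27, HPLM/B27, the lists' calls were nearly all downward too. Of 12 proteins that bind RN7SK freed of HEXIM1 or help release P-TEFb, 3, 2 and 6 fell and none rose. PPM1G, a phosphatase that acts on P-TEFb during release, fell in all 3 media, by 0.66, 0.51 and 0.43 (adjusted p = 0.00253, 0.00855 and 0.0218). PPP1CA, a catalytic subunit of protein phosphatase 1, fell by 0.56 in RPMI/B27 (adjusted p = 0.0234) and by 0.58 in HPLM/B27 (adjusted p = 0.0146). HNRNPA2B1, an hnRNP that binds the released RNA, fell by 0.40 in RPMI_glcM/B27 (adjusted p = 0.0189) and by 0.40 in HPLM/B27 (adjusted p = 0.0175), where its relative HNRNPR fell by 0.47 (adjusted p = 0.00985). DHX9, an RNA helicase, fell by 0.50 in RPMI/B27 (adjusted p = 0.0476) and by 0.52 in HPLM/B27 (adjusted p = 0.0349). The list's median differences were -0.32, -0.16 and -0.32, beside -0.28, -0.22 and -0.29 for all genes, and after median-of-ratios scaling none of the 12 passed downward, while 1 passed upward in RPMI/B27 (PPM1A, a phosphatase, 0.26, limma adjusted p = 0.0110) and 1 in RPMI_glcM/B27 (JMJD6, 0.43, adjusted p = 0.0482).

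The super elongation complex, which carries active P-TEFb, had 7 of 9 genes tested. In RPMI/B27 EAF1 fell by 0.68 (adjusted p = 0.0101) and AFF1, a scaffold of the complex, by 0.61 (adjusted p = 0.0145). In RPMI_glcM/B27 ELL2, an elongation factor, fell by 0.80 (adjusted p = 0.00397) and EAF1 by 0.53 (adjusted p = 0.0310), and in HPLM/B27 ELL2 fell by 0.55 (adjusted p = 0.0310). With median-of-ratios scaling EAF1 and AFF1 in RPMI/B27 still passed (limma adjusted p = 0.0166 and 0.00556), as did ELL2 in RPMI_glcM/B27 (adjusted p = 0.000737), while ELL2 in HPLM/B27 (adjusted p = 0.116) and EAF1 in RPMI_glcM/B27 (adjusted p = 0.050004) did not. Upward on that scale, MLLT1, which joins the complex to chromatin, passed in RPMI_glcM/B27 (0.42, limma adjusted p = 0.00338) and HPLM/B27 (0.36, adjusted p = 0.00949). BRD3, a bromodomain protein that binds acetylated histones, fell by 0.50 in RPMI/B27 (limma adjusted p = 0.0160) and 0.42 in HPLM/B27 (adjusted p = 0.0275). After median-of-ratios scaling neither BRD3 difference passed, and BRD2, of the same family, was listed at no more than 0.574 TPM and was not tested.

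Of the pausing factors NELF and DSIF, the substrates through which P-TEFb acts, 5 of 6 were tested and 1 passed, NELFB in RPMI/B27 (-0.68, limma adjusted p = 0.0252). At an unadjusted limma p under 0.05, 4 of the 5 passed in RPMI/B27, none in RPMI_glcM/B27 and 2 in HPLM/B27. Of 6 PAF1 complex genes, which act in elongation, only RTF1 passed in TPM: it fell by 0.40 in RPMI_glcM/B27 (limma adjusted p = 0.00597) and 0.53 in HPLM/B27 (adjusted p = 0.000736) against Day 16. RTF1 was also the only one of 77 list genes tested that was called in TPM between Day 30 media, at 32.8 ± 0.932 TPM in HPLM/B27 against 44.7 ± 2.60 TPM in RPMI/B27 (SD, n = 4), a difference of -0.43 (limma adjusted p = 0.0180) that did not pass after median-of-ratios scaling (adjusted p = 0.0526). On that scale 8 other list genes passed in RPMI_glcM/B27 against RPMI/B27, 6 of them higher, and 6 passed in HPLM/B27 against RPMI/B27, 5 of them higher, against 12.1% and 13.0% of all genes. CDC73, a PAF1 complex subunit, then exceeded Day 16 by 0.31, 0.23 and 0.27 in the 3 media (limma adjusted p = 0.00200, 0.00824 and 0.00317), while in TPM its differences were -0.027, -0.036 and -0.075 and did not pass. Among 7 tested genes of other kinases of the polymerase tail, CCNK, the cyclin of CDK12 and CDK13, fell by 0.86 in RPMI/B27 (adjusted p = 0.00289) and 0.63 in HPLM/B27 (adjusted p = 0.0138), and MNAT1, of the CDK7 complex, fell by 0.38 in HPLM/B27 (adjusted p = 0.0361). After median-of-ratios scaling NELFB and CCNK in RPMI/B27 still passed (adjusted p = 0.0488 and 0.0222), and RTF1 against Day 16, CCNK in HPLM/B27 and MNAT1 did not (adjusted p = 0.534 and 0.355, 0.159 and 0.790). Of the kinase genes CDK8, of the Mediator kinase module, passed upward in RPMI_glcM/B27 (0.35, limma adjusted p = 0.00269) and HPLM/B27 (0.55, adjusted p = 7.94e-05), and CDK13 in RPMI_glcM/B27 (0.18, adjusted p = 0.0411).

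Of 22 tested genes for the transcription of RN7SK and its first protein partner (RNA polymerase III subunits, SNAPc, their factors and SSB), 2, 2 and 3 fell in the 3 media and none, none and 1 rose, with medians of -0.22, -0.079 and -0.24. POU2F1, the octamer-binding protein that helps SNAPc onto such promoters, fell by 0.63, 0.78 and 0.81 (limma adjusted p = 0.0148, 0.00313 and 0.00230), and it was lower with median-of-ratios scaling too, by -0.32, -0.53 and -0.49 (adjusted p = 0.00158, 1.28e-05 and 2.67e-05). POLR3K, a subunit of RNA polymerase III, rose in HPLM/B27 by 0.94 (limma adjusted p = 0.0412) and SSB, the La protein that binds new RNA polymerase III transcripts, fell there by 0.52 (adjusted p = 0.0218). After median-of-ratios scaling POLR3K still passed (adjusted p = 0.0283) and SSB did not (adjusted p = 0.683). The list then held 1, 5 and 5 genes past the threshold upward and 1, 2 and 1 downward.

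Of 28 other small structured RNAs, 16 were tested, and 10 were listed at 0 in every library, among them RN7SL1, RPPH1 and RNU2-1. None passed by limma against Day 16 in RPMI/B27 or RPMI_glcM/B27, where 3 and 1 had an unadjusted p under 0.05, and 2 fell in HPLM/B27, RNU5B-1 and RNU1-1, on at most 6 reads in any library of these groups. RMRP, the RNA of RNase MRP and like RN7SK a product of RNA polymerase III, was at 1675 ± 610 TPM on Day 16 and at 1624 ± 426, 1707 ± 448 and 1654 ± 431 TPM in the Day 30 groups (SD, n = 4), with overlap between all groups. Others of the list did not stay level. RNY1 was at 185 ± 199 TPM on Day 16 and at 427 ± 442, 498 ± 336 and 413 ± 318 TPM in the Day 30 groups (SD, n = 4). These groups overlapped, and none of the differences passed. The mean of RNY3, on few reads, was also higher in each Day 30 group. Those of VTRNA1-3 and VTRNA2-1 were higher than Day 16 only in RPMI/B27.

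The genes whose centred profiles over the 16 libraries lay closest to that of RN7SK, of 6827 with a mean of at least 10 TPM, were RTF2, UBXN1 and GUK1. Their root mean square differences from it were 0.13, 0.13 and 0.14 on the log2 scale, against 0.20 for RN7SK about its own mean. Like RN7SK they were higher in the RPMI media at Day 30 than on Day 16, RTF2 for example at mean levels of 44.1 TPM on Day 16, 52.0 TPM in RPMI/B27 and 53.5 TPM in RPMI_glcM/B27, with 43.8 TPM in HPLM/B27. CLCN3, PFN2 and CRYZL1 lay closest to HEXIM1, at 0.078, 0.083 and 0.088 against 0.23 for HEXIM1 about its mean.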

How the data were processed

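Total RNA libraries (Takara SMARTer Stranded Total RNA, HI Mammalian) were sequenced on a NovaSeq6000. Per the submitters' processing notes and methods, reads were aligned by STAR 2.5.3a to hg38 with decoy sequence and counted by featureCounts 2.0.3, and R 4.1.3 was used for DESeq2. The deposited file holds TPM of the authors, with no counts. The annotation, gene lengths and tool behind the TPM were not given in the sources used here. The TPM steps gave whole reads (within 0.1 reads) for each of the 31047 genes with a value above 0, and these recovered reads gave the depth. Depth limits the genes with few reads, HEXIM2 above all.

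Groups were taken from the labels. Since the file holds TPM, limma 3.58.1 (lmFit, eBayes with trend, R 4.3.3) was fitted to log2(TPM + 1) over all 16 libraries and the 16122 genes that averaged 1 TPM or more, with group as the only term, Benjamini-Hochberg adjustment over all genes in each of 6 comparisons and a threshold of 0.05. A pseudocount of 1 TPM understates changes of low genes. Exact permutation tests, two-sided, were used for ratios and shares. Python 3.11.15 with numpy 2.4.6, scipy 1.17.1, pandas 2.3.3 and matplotlib 3.10.9 was used, and the fits were tested on simulated data.

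The members and gene lists were chosen with earlier results of these data known. Genes named were the 8 members, RNR1 and RNR2, of each list up to 4 past the threshold with the smallest adjusted p (otherwise the nearest), any genes named like RN7SK copies, and the 3 nearest profiles to RN7SK and HEXIM1. Results of 2 list genes that this rule names are not reported here. BRD2, RMRP, PPM1A, JMJD6, MLLT1, CDC73, CDK8, CDK13 and the RNAs listed at 0 were named after their values were seen. Replicate pairs of a group were compared and none was identical. The alternatives were a pseudocount of 0.1, no filter, a mean of at least 5 TPM, median-of-ratios scaling, a total without RN7SK, mitochondrial and ribosomal RNA, only the 2 groups compared, a replicate block, limma-voom on recovered reads and each library left out.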

Additional observations from a re-analysis of the deposited data

Results flagged for a closer look

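HEXIM2 in Day 30 RPMI_glcM/B27 had 1 library far from the others, replicate 2 at 2.62 TPM against 1.62, 1.604 and 1.49 TPM. Its gap to the nearest library was 0.882 of the group's range. Of 48 such tests on groups of 4 libraries this was the only one past the limit, and chance passes about 1 in 20.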

How the results depend on the processing

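RN7SK's differences from Day 16 kept their direction in every setting run, and its calls did not hold in all of them. In RPMI/B27 the number of members called was 0 with no filter, 0 with median-of-ratios scaling, 0 with only the 2 groups fitted and 0 with replicates 3 and 4 left out and median-of-ratios scaling, and 2 with limma-voom (LARP7 and RN7SK). In RPMI_glcM/B27 it was 0 with no filter, and with median-of-ratios scaling the 1 member called was MEPCE, with RN7SK no longer called. In HPLM/B27 against Day 16 it was 1 at a mean of at least 5 TPM (RN7SK), 1 with median-of-ratios scaling (MEPCE), 1 with the total without RN7SK, mitochondrial and ribosomal RNA (RN7SK) and 2 with limma-voom (MEPCE and RN7SK). Of all genes, 2997 of 9753 passed there at a mean of at least 5 TPM, and 3637 of 16122 with the reduced total. Against Day 30 RPMI/B27 it was 1 with median-of-ratios scaling and 1 with limma-voom in both other media, each time MEPCE, and 1 in HPLM/B27 without replicates 3 and 4 of RPMI/B27 (CCNT2, -0.41, limma adjusted p = 0.0271). In that last setting 3367 of all 16122 genes passed, 3120 of them lower, and the median gene moved by -0.27. The CCNT2 call is therefore not particular to this gene. The number of genes called between Day 30 media rose with median-of-ratios scaling from 354, 388 and 11 to 1952, 2092 and 257, and the genes called against Day 16 were 336 higher and 2867 lower, 538 and 2862, and 483 and 3605 in TPM but 1413 and 1413, 2254 and 2199, and 2154 and 1919 after it. As a share of recovered reads RN7SK differed by 0.627, 0.611 and 0.341 points from Day 16, by -0.286 and -0.270 points between HPLM/B27 and the RPMI media, and by -0.0159 points between those, and none passed after adjustment. Without replicates 3 and 4 of RPMI/B27 the TPM share differed by 3.19 points from Day 16 and by -1.55 points from HPLM/B27, where 2 against 4 libraries cannot pass the exact test.

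Leaving out 1 library at a time, the members called in RPMI/B27 against Day 16 numbered 1 to 4, with CCNT1 and MEPCE added without replicate 1 of RPMI/B27 and LARP7 besides without replicate 2. Of all 16122 genes, 4691 passed without replicate 1 and 5012 without replicate 2, against 3203 with all libraries. Of these, 4397 and 4705 were lower in the reduced fits. In HPLM/B27 against Day 16 they numbered 0 to 1, the 1 being RN7SK without replicate 4 of Day 16. In that fit 4128 of all genes passed, 412 of them higher. The share of TPM in HPLM/B27 ranged from 1.303 to 1.89 points over Day 16, from -2.14 to -1.54 against RPMI/B27 and from -2.35 to -1.81 against RPMI_glcM/B27. None of these differences changed sign. The log2 ratios crossed 0 between HPLM/B27 and RPMI_glcM/B27 for HEXIM1 to CDK9 (-0.013 to 0.075), HEXIM1 to HEXIM2 (-0.31 to 0.049) and CCNT1 to CCNT2 (-0.025 to 0.071), between HPLM/B27 and RPMI/B27 for HEXIM1 to HEXIM2 (-0.072 to 0.26), and between HPLM/B27 and Day 16 for RN7SK to LARP7 (-0.00084 to 0.075). Differences that were not called crossed 0 for HEXIM1 in RPMI/B27 over Day 16 (-0.22 to 0.014), RPMI_glcM/B27 over RPMI/B27 (-0.14 to 0.098) and HPLM/B27 over RPMI/B27 (-0.22 to 0.018), for HEXIM2 in HPLM/B27 over RPMI_glcM/B27 (-0.078 to 0.15), for MEPCE over Day 16 in RPMI_glcM/B27 (-0.031 to 0.084) and HPLM/B27 (-0.048 to 0.014) and in HPLM/B27 over RPMI_glcM/B27 (-0.099 to 0.017), for CDK9 in RPMI_glcM/B27 over Day 16 (-0.11 to 0.022) and HPLM/B27 over RPMI/B27 (-0.070 to 0.18), for CCNT1 in HPLM/B27 over RPMI/B27 (-0.054 to 0.22), and for CCNT2 over RPMI/B27 in RPMI_glcM/B27 (-0.041 to 0.26) and HPLM/B27 (-0.17 to 0.13).

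With median-of-ratios scaling the sign turned over Day 16 for HEXIM1 (0.21 in RPMI/B27, 0.13 in RPMI_glcM/B27, 0.13 in HPLM/B27, the order used here), CDK9 (0.10, 0.20 and 0.16), CCNT2 (0.069, 0.12 and 0.062), HEXIM2 in RPMI/B27 (0.055), CCNT1 in RPMI_glcM/B27 (0.013) and MEPCE in HPLM/B27 (0.30), for MEPCE in HPLM/B27 over RPMI_glcM/B27 (0.023) and for RN7SK in RPMI_glcM/B27 over RPMI/B27 (-0.044). With limma-voom the same signs turned, at 0.22, 0.13 and 0.13 for HEXIM1, 0.11, 0.21 and 0.17 for CDK9, 0.069, 0.12 and 0.059 for CCNT2, 0.052 for HEXIM2, 0.0077 for CCNT1, 0.33 and 0.015 for MEPCE and -0.047 for RN7SK. With the reduced total they turned over Day 16 for HEXIM1 (0.083, 0.022 and 0.0022), for CDK9 in RPMI_glcM/B27 (0.097) and HPLM/B27 (0.038), for CCNT2 in RPMI_glcM/B27 (0.0050) and for MEPCE in HPLM/B27 (0.19), for CCNT2 in HPLM/B27 over RPMI/B27 (0.0033), for MEPCE in HPLM/B27 over RPMI_glcM/B27 (0.012) and for RN7SK in RPMI_glcM/B27 over RPMI/B27 (-0.021). Without replicates 3 and 4 of RPMI/B27 they turned in RPMI/B27 over Day 16 for HEXIM1 (0.23), HEXIM2 (0.086), CDK9 (0.11) and CCNT2 (0.13), in RPMI_glcM/B27 over RPMI/B27 for CDK9 (-0.16), CCNT1 (-0.18) and CCNT2 (-0.28), and in HPLM/B27 over RPMI/B27 for LARP7 (0.058), MEPCE (-0.0058), CDK9 (-0.28) and CCNT1 (-0.29). With median-of-ratios scaling as well they turned for HEXIM1 (0.25), HEXIM2 (0.099), MEPCE (0.012), CDK9 (0.13) and CCNT2 (0.16) over Day 16, for LARP7 (0.24) and CCNT2 (-0.035) in RPMI_glcM/B27 over RPMI/B27 and for LARP7 (0.37) and RN7SK (0.14) in HPLM/B27 over RPMI/B27. Except as given in this section and the report, the cause was not tested. The share of reads, the settings without replicates 3 and 4, and the block with median-of-ratios scaling were chosen after seeing the data.

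The labels tie no replicate number to a shared origin. Deviations of libraries with the same number correlated at -0.24 to 0.44 (24 pairs, median 0.13), against a median of -0.072 over 72 pairs with different numbers. Deviations were taken from group means and cancel within a group. Positive correlations at the same number therefore go with negative ones at different numbers. All pairs of replicate 2 and of replicate 4 were positive, and those of replicates 1 and 3 were of both signs. In 16 of 48 cases a library correlated best with its own number among the 4 libraries of another group, where chance alone gives 1 in 4. Since not every pair was above 0.1, the libraries were not treated as paired. With the number as a replicate block 2 members were called in RPMI/B27 over Day 16, CCNT1 and RN7SK, where 4734 of all 16122 genes passed, 4292 of them lower. With the block and median-of-ratios scaling RN7SK was not called in any comparison. Over Day 16 there were then 1 in RPMI/B27 (LARP7), 1 in RPMI_glcM/B27 (MEPCE) and 2 in HPLM/B27 (LARP7 and MEPCE). Over RPMI/B27 there were 1 in RPMI_glcM/B27 and 1 in HPLM/B27, both MEPCE. Of all 16122 genes, 2995, 4579 and 4174 passed in these fits over Day 16, and 1955 and 2163 over RPMI/B27. The signs that turned were those of median-of-ratios scaling alone, at the same values. In the block the share of TPM differed by 3.44, 3.65 and 1.65 points from Day 16, by -1.80 points between HPLM/B27 and RPMI/B27 and by -2.002 points between HPLM/B27 and RPMI_glcM/B27, where 4 pairs cannot give an exact p under 0.125.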
